A study of Mus musculus with 10 samples.

Results

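The cytosolic ribosomal proteins are the protein part of the ribosomes that translate nuclear mRNAs in the cytosol, and their genes carry names in Rpl for the large subunit and Rps for the small subunit. They were taken here as every non-control probe whose gene symbol is Rpl or Rps followed by a number, with or without a letter, together with Rplp0, Rplp1, Rplp2 and Rpsa, leaving out the Rps6k kinases and pseudogenes recognised by their names. The rule found 141 probes of 82 genes, 50 of the large and 32 of the small subunit, among 56605 non-control probes, of which those with a name covered 22907 genes. Liver RNA was measured on 10 one-colour Agilent arrays, 1 mouse each. The ethanol group held 5 male C57BL/6J mice fed a 60% high-fat diet for 4 months and given ethanol in their drinking water over the last 3 months, at 5 g/kg per day in week 1 and 10 g/kg per day after that. The control group held 5 male C57BL/6J mice that ate the same diet over the same 4 months and got no ethanol. All mice had been bought at 7 weeks of age and were on the high-fat diet, so no lean liver stands behind either group.

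Each ribosome carries 1 copy of nearly every ribosomal protein, and the cell makes these proteins in matched amounts, since an unpaired one is degraded. Their mRNAs are among the most abundant and most evenly expressed in any tissue. They begin with a cytosine followed by a run of pyrimidines, the terminal oligopyrimidine (TOP) tract, through which mTORC1 and LARP1 control how many ribosomes translate them. An array measures the amount of an mRNA and does not see that step.

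Start sites were looked up in the RefSeq promoter table for GRCm38.p6, which held 73 windows for 61 of the 82 genes, each reaching 250 bases before and 50 bases after the annotated start. A TOP tract, taken as a C followed by at least 4 pyrimidines exactly at the annotated start, stood in 14 of the 73 windows (19.2%) and in 823 of all 32851 windows (2.51%). A start annotated a base or more away from the true one hides the tract, so its absence says only that these letters are not at that position. The starts of 5 named members with a tract are shown with the tract in capitals, beside that of Rps27l, which has none there. Each line runs 5′ to 3′ over 30 bases, of which 10 lie before the start. The windows are chr3:90213629-90213658 on the minus strand for Rps27, chr4:86857348-86857377 on the minus strand for Rps6, chr7:141447641-141447670 on the plus strand for Rplp2, chr11:114668570-114668599 on the plus strand for Rpl38, chr17:33955646-33955675 on the minus strand for Rps18 and chr9:66946076-66946105 on the plus strand for Rps27l.
Rps27: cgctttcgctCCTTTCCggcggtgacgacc
Rps6: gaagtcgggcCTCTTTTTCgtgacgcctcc
Rplp2: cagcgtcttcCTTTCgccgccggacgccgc
Rpl38: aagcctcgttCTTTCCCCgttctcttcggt
Rps18: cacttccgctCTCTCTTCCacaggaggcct
Rps27l: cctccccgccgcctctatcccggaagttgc

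Around the start, 3 fixed words were searched on both strands over the whole 300-base window. CCGGAA, the core word of ETS-family factors such as GABPA, was in 34 of the 73 member windows (46.6%) and in 14.9% of all windows. AAGATGGC, the word of YY1, was in 7 (9.59%) and in 2.75% of all windows. TATAAA, the core of the TATA box, was in 7 (9.59%) against 13.6% of all windows. Rps27 and Rps7, described further on, are shown over 120 bases, of which 100 lie before the start, with CCGGAA, its reverse complement TTCCGG and AAGATGGC in capitals. The Rps27 window is chr3:90213629-90213748 and the Rps7 window chr12:28635934-28636053, both on the minus strand, and the TTCCGG of Rps27 overlaps its TOP tract.
Rps27: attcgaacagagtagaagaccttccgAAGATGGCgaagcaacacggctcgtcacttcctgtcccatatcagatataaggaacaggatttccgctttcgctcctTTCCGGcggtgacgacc
Rps7: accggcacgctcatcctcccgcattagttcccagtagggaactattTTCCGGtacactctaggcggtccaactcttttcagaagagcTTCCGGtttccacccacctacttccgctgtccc

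Values are log2 of the processed intensity after each array was divided by its own 75th percentile, so 0 is that percentile and 1 unit is a doubling. The 10 arrays had a 75th percentile of 279.9 to 387.4 signal units, no saturated spot, and 57.6% ± 1.1 (SD, n = 10) of their spots well above background. Ethanol replicates 1, 2, 3 and 5 and control replicate 2 were on slide 3, ethanol replicate 4 and control replicates 4 and 5 on slide 1, and control replicates 1 and 3 on slide 2, which held no ethanol array. The position on the slide was uneven too. Column 4 held only control replicates 1, 4 and 5, column 1 only ethanol replicates 2 and 3, and columns 2 and 3 held both groups. Of the 141 member probes, 135, covering 78 genes, were well above background on all 10 arrays and were tested among 31110 probes. The 6 others were well above background on no array. They are the probes of Rpl3l, Rpl10l and Rpl39l, paralogs known from muscle or testis, the single named probe of Rpl37, and an extra probe each of Rps15a and Rps27a. The RefSeq table also names 321 pseudogenes in the style of this family, and signal from such near-identical copies cannot be told apart from that of the genes.

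The tested members were bright and steady. The mean value of 134 of the 135 lay above the array's 75th percentile, with a median of 5.78 on the log2 scale, and the median member stood at the 96.7th percentile of tested probes. The SD between mice of a group, pooled over both groups, had a median of 0.10 over the members and 0.23 over all tested probes, a ratio of 2.39. Most tested probes were dimmer than the members. No SD of other probes of like level or number of spots is given beside this, so the steadiness is not shown to be particular to the members. For the 59 members printed as 10 spots per array, the SD between single spots of 1 array was 0.046 (median; range 0.028 to 0.088). The SD between mice was 0.077, and it was the larger one for 51 of the 59. The value of a mouse is a mean of 10 spots, and the SE of such a mean had a median of 0.014. The steadiest was a probe of Rps6, the small-subunit protein that S6 kinase phosphorylates. It read 4.49, 4.46, 4.47, 4.44 and 4.49 in ethanol livers, against 4.43, 4.43, 4.46, 4.45 and 4.50 in control livers. The groups overlap and all 10 arrays lie close together. Rps23, whose product sits in the decoding centre, spanned 6.06 to 6.09 in ethanol livers and 5.98 to 6.10 in control livers, and Rpl29 spanned 6.35 to 6.45 in ethanol livers and 6.33 to 6.42 in control livers.

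No ribosomal protein mRNA passed the test between ethanol and control livers. With limma and Benjamini-Hochberg adjustment over the 31110 probes, 0 of 135 members had an adjusted p under 0.05, and 0.00964% of all tested probes did. The smallest adjusted p of a member was 0.279. In bulk liver, fewer cells of a type and less RNA per cell cannot be told apart, so each value is that of the whole tissue. The members nevertheless lay to 1 side: 129 of 135 had a higher mean in ethanol livers and 6 a lower one, so 95.6% were higher, beside 60.8% of all tested probes. The median log2 difference of the members was 0.11, or 1.08-fold, with quartiles of 0.06 and 0.14 and a range of -0.08 to 0.32. The median over all tested probes was 0.05. At an unadjusted p under 0.05 there were 14 members of 11 genes, all higher in ethanol livers, which is 10.4% of the members, beside 8.46% of all tested probes in that direction and 4.34% in the other. The groups did not overlap for 8 members, all higher in ethanol livers (5.93%), beside 1.79% of all tested probes in that direction, 0.99% in the other and 2.78% in either. These 8 were probes of Rpl9, Rpl10a, Rpl18, Rpl23, Rpl27a, Rplp2, Rps3 and Rps10.

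The one-sided pattern depended on how the arrays were scaled to each other. With quantile normalization 70 of the members were higher and 65 lower in ethanol livers (51.9% higher, beside 50.5% of all tested probes), the median was 0.0034, beside 0.0024 over all tested probes, and the range was -0.16 to 0.23. No member then reached an unadjusted p under 0.05 (smallest 0.0747), while 11.6% of all tested probes did, and no member had groups that did not overlap, beside 2.54% of all tested probes. With cyclic loess 87 of the 135 were higher (50.5% of all probes) and the median was 0.025. With scaling to the array median 89 were higher, beside 42.3% of all tested probes. That median was 0.023, and the median of all probes was -0.035.

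**Figure D1:**
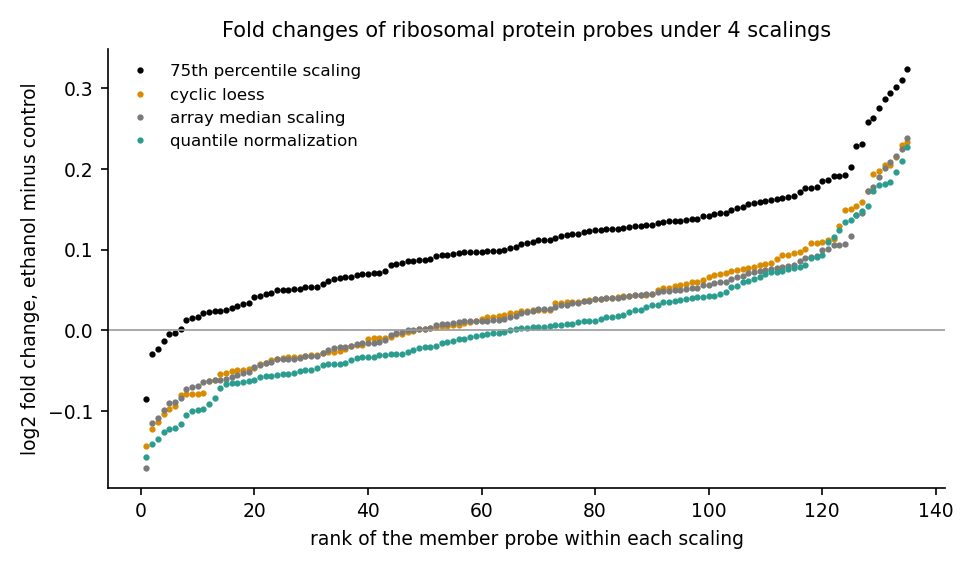
Difference of each tested member, ethanol minus control on the log2 scale, in order of rank under each of the 4 scalings of the arrays. With 75th percentile scaling 129 members lie above 0 and the median is 0.11, while with quantile normalization 70 lie above 0 and the median is 0.0034.

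Other bright probes had a median shift of similar size, but a smaller share of them was higher. Among probes with a mean level of 4 to 6, the 1795 that were not members had a median difference of 0.08 and 74.0% were higher in ethanol livers, and the 67 members had a median of 0.10 with 64 higher. Between 6 and 9, the 770 other probes had a median of 0.10 with 80.9% higher, and the 56 members a median of 0.11 with 54 higher. Between 2 and 4, the 3613 other probes had a median of 0.05 with 65.1% higher, and the 9 members a median of 0.13 with 8 higher. For dimmer other probes the median was 0.02 between 0 and 2, 0.03 between -2 and 0, and 0.07 between -4 and -2. With quantile normalization the members' medians in the upper pair of ranges were 0.0071 and -0.015, against -0.0067 and -0.016 for the other probes. The 9 members between 2 and 4 kept a median of 0.082 with 7 higher, against 0.0043 for the other probes, and the 2 members between 0 and 2 had 0.17 against 0.0045. The 99th percentile of all probes, on the scaled log2 axis, was 6.70 ± 0.04 in ethanol arrays and 6.57 ± 0.07 in control arrays (SD, n = 5 each). The bright end of the scale stood further from the 75th percentile in the ethanol arrays, but the arrays did not differ at that end alone. The difference, ethanol minus control, was 0.13 at the 99th percentile, 0.07 at the 95th and 0.11 at the median of all probes. The part of these differences in the members' shift was not tested.

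**Figure D2:**
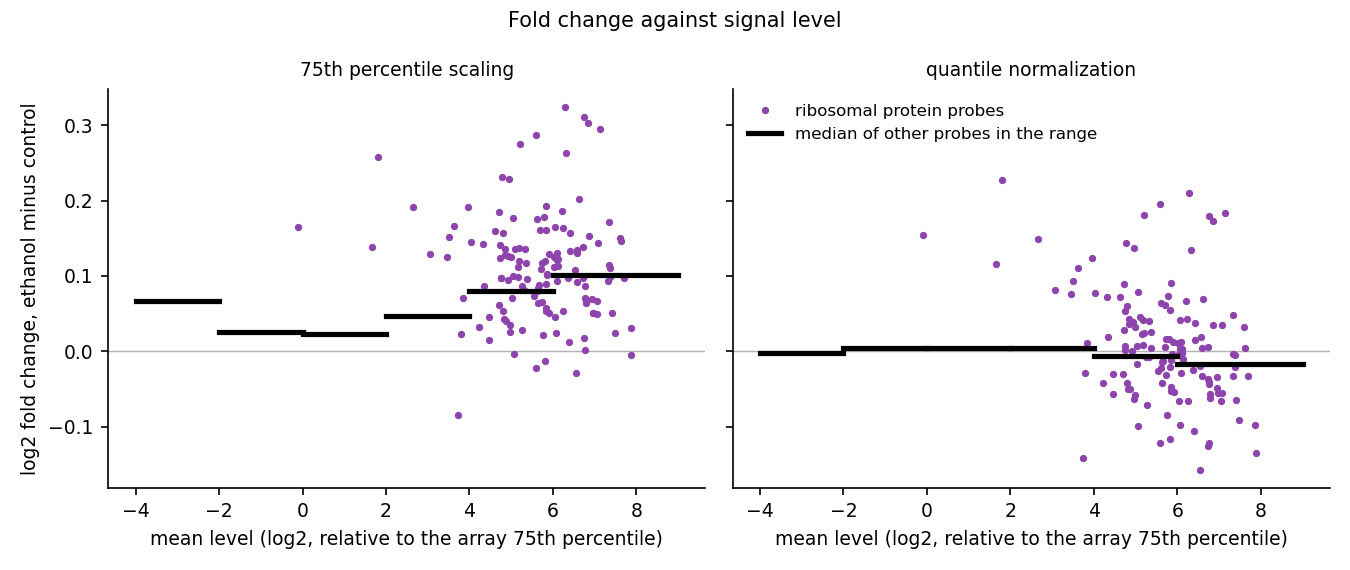
Difference of each tested member (points), ethanol minus control on the log2 scale, against its mean log2 level relative to the array's 75th percentile, with the median of all other tested probes in each range of level as black bars. At levels of 4 and above the bars lie at 0.08 and 0.10 under 75th percentile scaling and at -0.0067 and -0.016 after quantile normalization, amid the members.

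Mouse by mouse, the median deviation of the members from their mean over all arrays was 0.12, -0.04, 0.05, 0.02 and 0.11 in ethanol replicates 1 to 5. In control replicates 1 to 5 it was -0.08, -0.02, -0.03, -0.05 and -0.04. Ethanol replicate 2 lay among the controls and the 4 other ethanol mice above all of them. The means were 0.05 ± 0.07 in ethanol livers and -0.05 ± 0.02 in control livers (SD, n = 5 each). After quantile normalization the same deviations were 0.09, -0.13, 0.03, -0.06 and 0.07 in ethanol livers, against 0.05, -0.03, -0.02, -0.0013 and 0.0077 in control livers. The groups overlapped then, and ethanol replicate 2 was the lowest of the 10 arrays for 70 of the 135 members. Within slide 3, with 4 ethanol mice and 1 control mouse, the members' median difference was 0.079, and within slide 1, with 1 ethanol mouse and 2 control mice, it was 0.071. With slide as a fixed block it was 0.084. Large-subunit and small-subunit members had like deviations over the arrays, with mean deviations of 0.06 and 0.05 in ethanol livers and -0.05 and -0.04 in control livers.

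**Figure D3:**
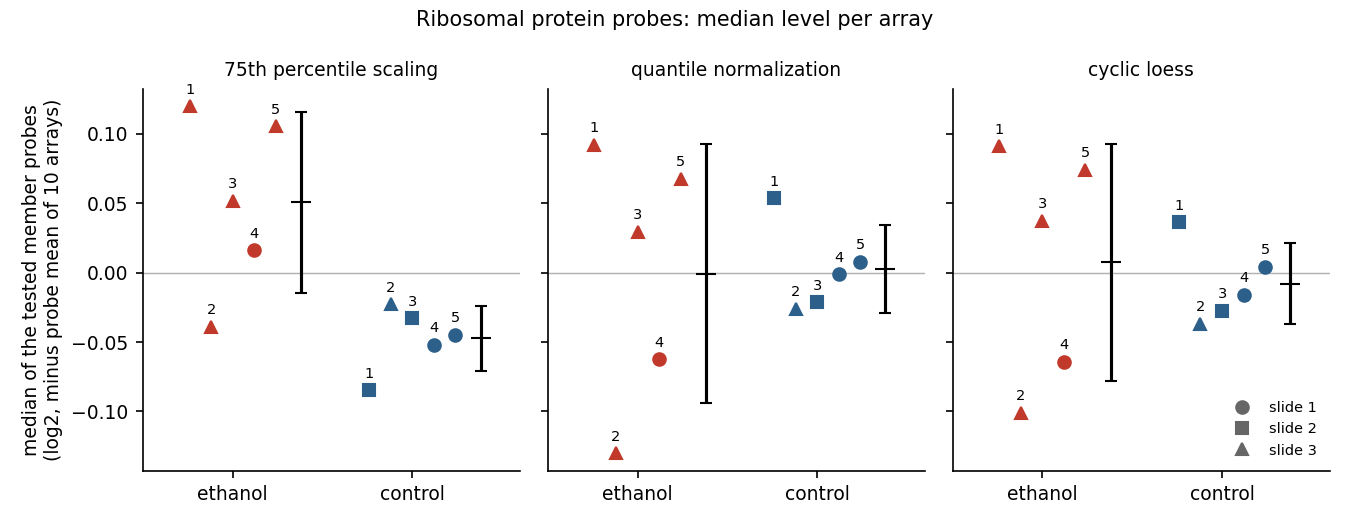
Median deviation of the tested members from their mean over the 10 arrays, in log2 units, for each ethanol mouse (left) and control mouse (right) under 75th percentile scaling, quantile normalization and cyclic loess, with the replicate number above each point, the slide as its shape and the mean ± SD of 5 mice. Ethanol replicate 2 is the lowest of the ethanol mice in each panel, and the group means are 0.05 and -0.05 in the first panel but close to 0 in the other panels.

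The large subunit catalyses peptide bond formation. Its 42 tested genes had 77 probes, 75 with a higher mean in ethanol livers and a median difference of 0.10, against 43 and 0.0071 after quantile normalization. Rpl10a, part of the mobile stalk beside the exit site for tRNA, had the smallest p of any member. Its probe read 6.49, 6.39, 6.54, 6.32 and 6.53 in ethanol livers, against 6.18, 6.08, 6.23, 6.20 and 6.25 in control livers. Every ethanol mouse was above every control mouse, and the difference was 0.26 ± 0.08 (SE; limma adjusted p = 0.279), or 0.13 after quantile normalization. A second probe of Rpl10a differed by 0.20, with groups that overlapped.

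Rpl3, a protein that reaches towards the peptidyl transferase centre, had 3 probes with differences of 0.23, 0.19 and 0.26. The last is the least precise of all members: it read 1.89, 2.25, 2.29, 1.67 and 1.56 in ethanol livers, against 1.82, 0.98, 1.76, 1.71 and 2.09 in control livers. The groups overlapped. Rpl5 and Rpl11, which carry the small rRNA of the large subunit and bind Mdm2 when ribosome assembly stalls, differed by 0.12 and 0.15 (adjusted p = 0.615 and 0.501). Rpl38, which in mouse embryos is needed for the translation of Hox mRNAs, differed by 0.05, and by -0.064 after quantile normalization. The 6 genes that line the tunnel through which the nascent chain leaves, Rpl39 among them, had 15 probes, all with a higher mean in ethanol livers and a median of 0.11, against 9 and 0.011 after quantile normalization.

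Rpl39 had 5 probes, more than any other member gene, with differences of 0.08 to 0.17. On all 5, ethanol replicate 2 was the lowest ethanol mouse: the probe with the largest difference read 3.82, 3.39, 3.82, 3.76 and 3.77 in ethanol livers, against 3.55, 3.52, 3.60, 3.51 and 3.54 in control livers. The other ethanol mice were above every control mouse on that probe. Rpl10, a protein that joins last and is needed before the subunits can unite, differed by -0.0049, and Rpl19, which reaches into the small subunit, by -0.01. They were the 2 large-subunit members with a lower mean in ethanol livers.

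The acidic stalk, built from Rplp0 and the paired Rplp1 and Rplp2, recruits the elongation factors to the ribosome. Its 4 probes all had a higher mean in ethanol livers, with a median of 0.14, and 2 did after quantile normalization, with a median of 0.018. Rplp2 read 7.55, 7.35, 7.33, 7.34 and 7.53 in ethanol livers, against 7.26, 7.24, 7.24, 7.28 and 7.23 in control livers. These groups did not overlap, with a difference of 0.17 ± 0.07 (SE; limma adjusted p = 0.377) that was 0.05 after quantile normalization. Rplp0 differed by 0.11, and by -0.019 after quantile normalization. The probes of Rplp1 differed by 0.16 and 0.12, and by 0.037 and -0.0018 after quantile normalization.

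The small subunit reads the mRNA, and its 30 tested genes had 50 probes, 48 with a higher mean in ethanol livers and a median of 0.11, against 24 and -0.0041 after quantile normalization. Rps27, a zinc-finger protein, had the largest difference of all members. Its probes read 6.52, 6.25, 6.54, 6.49 and 6.42 in ethanol livers, against 5.90, 6.18, 6.45, 5.97 and 6.12 in control livers, and 7.08, 6.79, 7.05, 7.04 and 7.03 in ethanol livers, against 6.46, 6.87, 7.03, 6.53 and 6.59 in control livers. Control replicate 3 lay among the ethanol mice on both, and control replicate 2 on the second. The differences were 0.32 ± 0.11 and 0.30 ± 0.12 (SE; limma adjusted p = 0.328 and 0.358), and 0.21 and 0.17 after quantile normalization.

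Rps27l is the near-identical paralog of Rps27, and a target of p53. Its probes differed by -0.03 and -0.02, so that both had a lower mean in ethanol livers. Subtracting the mean of the Rps27l probes from that of the Rps27 probes within each array removes the scaling, and the result is meant only for comparing arrays. It was 0.71, 0.57, 0.93, 0.53 and 0.60 in ethanol livers, against 0.21, 0.36, 0.59, 0.15 and 0.34 in control livers. Control replicate 3 overlapped the ethanol mice. The means were 0.67 ± 0.16 and 0.33 ± 0.17 (SD, n = 5 each), a difference of 0.34 or 1.26-fold, and 0.33 after quantile normalization. The pair was singled out after its values were seen, so no test is given.

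Rps14, on the platform beside the mRNA exit, read 7.03, 6.70, 7.04, 6.89 and 6.87 in ethanol livers, against 6.57, 6.38, 6.82, 6.61 and 6.60 in control livers. The difference was 0.31 ± 0.10 (SE; limma adjusted p = 0.316), with control replicate 3 above the lowest ethanol mouse. Rps3, at the mRNA entry, read 5.38, 5.35, 5.55, 5.26 and 5.19 in ethanol livers, against 5.09, 4.78, 5.18, 5.15 and 5.16 in control livers. Its groups did not overlap, with a difference of 0.28 (adjusted p = 0.346). Rps7, one of the proteins mutated in Diamond-Blackfan anaemia, differed by 0.23 (adjusted p = 0.335). Rps27a, made as a fusion to ubiquitin, differed by 0.29 (adjusted p = 0.363). The 7 genes around the mRNA channel had 10 probes, all with a higher mean in ethanol livers and a median of 0.15, against 7 and 0.024 after quantile normalization. A set of 9 of the genes known from Diamond-Blackfan anaemia, which leaves out others such as Rps27, had 15 probes, 13 with a higher mean in ethanol livers and a median of 0.10, against 6 and -0.0043 after quantile normalization.

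Other small-subunit members had smaller differences or wide errors. Rps25, a protein used by some viral internal ribosome entry sites, differed by 0.15, but Rps4x, the X-linked gene, differed by 0.04 and the probes of Rps19 by 0.03 and 0.05. After quantile normalization Rps4x differed by -0.05 and the probes of Rps19 by -0.07 and -0.05. Rpsa, which also serves as a laminin receptor at the cell surface, had 2 probes that differed by 0.11 and 0.13, and by -0.010 and 0.0041 after quantile normalization. Rps4l, a transcribed pseudogene in the RefSeq table whose name fits the rule, differed by 0.19 with an SE of 0.17.

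Probes of the same gene gave similar differences. Among 43 genes with several tested probes, the range of the differences had a median of 0.03, and under 75th percentile scaling 1 gene, Rps24, had probes of opposite sign. Its differences were -0.08, -0.0029 and 0.10, a range of 0.18. The first read 3.82, 3.32, 3.73, 3.73 and 3.83 in ethanol livers, against 3.70, 3.77, 3.82, 3.79 and 3.78 in control livers, so its lower mean came with ethanol replicate 2. Rps18, a common reference gene for qPCR, came next: its probes differed by 0.03, 0.15 and 0.03, and by -0.10, 0.08 and -0.06 after quantile normalization.

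**Figure D4:**
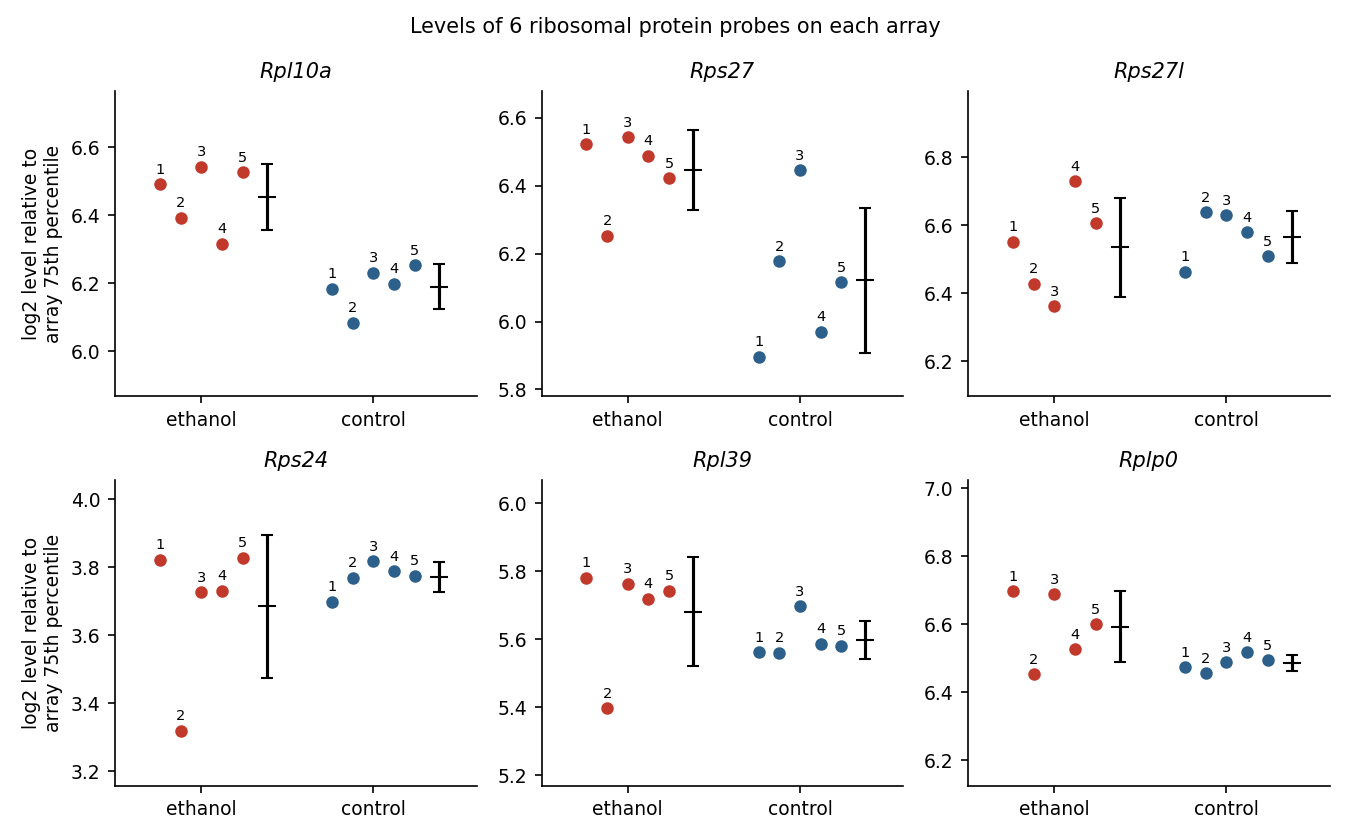
Log2 level relative to the array's 75th percentile of 1 probe each of Rpl10a, Rps27, Rps27l, Rps24, Rpl39 and Rplp0, for ethanol mice (left) and control mice (right), each point a mouse with its replicate number, with the mean ± SD of 5 mice; every panel has its own range. The Rpl10a groups do not overlap, control replicate 3 lies among the ethanol mice for Rps27, and ethanol replicate 2 is the lowest of all 10 mice for Rps24, Rpl39 and Rplp0.

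Reference genes for qPCR are often taken from this family, and the 9 probes of Rplp0, Rpl13a, Rps18, Rpl32, Rpl19 and Rpl27 had a median difference of 0.05, with 8 higher in ethanol livers. After quantile normalization 2 were higher and the median was -0.06. Rpl13a read 6.34, 6.07, 6.33, 6.37 and 6.42 in ethanol livers, against 5.97, 6.27, 6.30, 6.03 and 6.03 in control livers. It overlapped, with a difference of 0.19 (adjusted p = 0.453). Rpl32 differed by 0.07, and by -0.057 after quantile normalization, and Rpl19 by -0.01.

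The precision of the arrays bounds how far the members could differ. The 95% intervals of limma lay wholly within 1.5-fold either way for 134 of the 135 members. The exception was the dim Rpl3 probe, whose upper bound was 1.67-fold. The lowest bound of any member was 0.804-fold, for Rps24. The intervals of 14 members lay above 0, the same number as at an unadjusted p under 0.05. These intervals hold for 75th percentile scaling alone. Each is for a single probe, without adjustment for the number of probes or for slide.

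**Figure D5:**
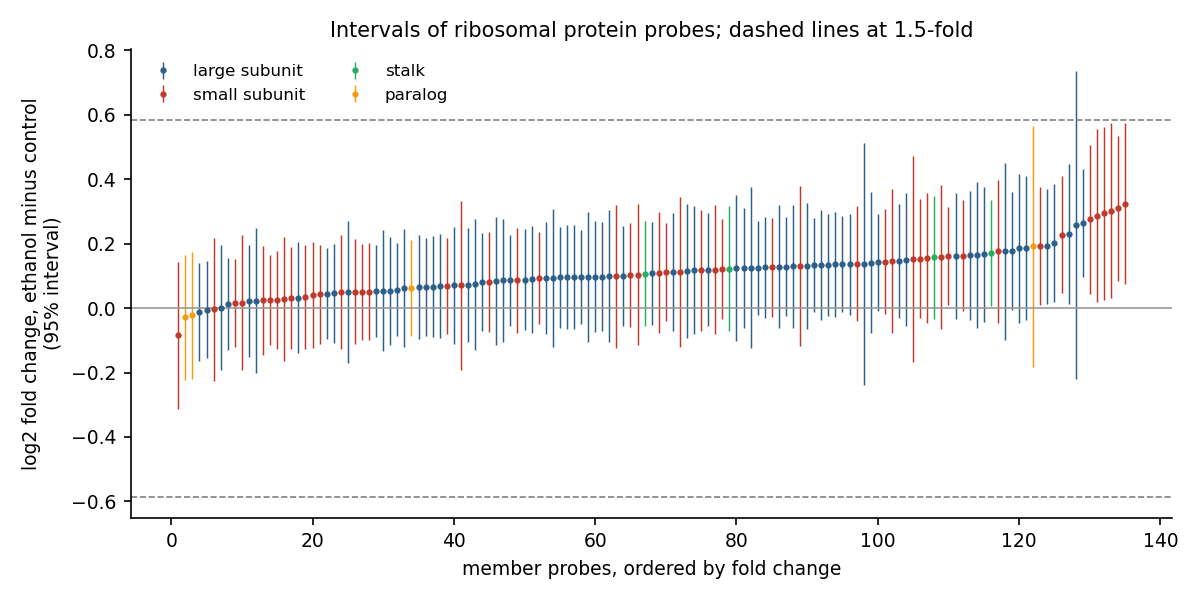
Difference of each tested member with its 95% interval, ethanol minus control on the log2 scale, in order of size and coloured by subunit, stalk or paralog, with dashed lines at 1.5-fold. All intervals but that of 1 Rpl3 probe stay within 1.5-fold, and 14 lie above 0.

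Genes around the ribosome were taken from lists. Fau, which makes a small-subunit protein fused to a ubiquitin-like one, differed by 0.20 (limma adjusted p = 0.374), or 0.07 after quantile normalization. The 7 probes of paralogs with names outside the rule all had a higher mean, with a median of 0.11, and 4 did after quantile normalization. Rpl22l1, the paralog of Rpl22, differed by 0.35 (adjusted p = 0.394), and the probes of Rps3a1, whose symbol ends in a second number and so missed the rule, by 0.08, 0.09 and 0.09, and by -0.0086, -0.0030 and -0.026 after quantile normalization. Elongation factors and other TOP mRNAs had 35 of 37 probes higher, with a median of 0.07 that was 0.01 after quantile normalization. Initiation factors had 27 of 33 higher, with a median of 0.08 that was 0.044 after quantile normalization, and Eif1, which helps to find the start codon, differed by 0.27 (adjusted p = 0.284).

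Away from the mature ribosome the lists were more evenly split under 75th percentile scaling. That contrast did not hold after quantile normalization, where 70 of the 135 members were higher, with a median of 0.0034. Ribosome biogenesis had 43 of 59 probes higher, with a median of 0.04, against 32 and 0.013 after quantile normalization. Tsr1, which matures the small subunit, differed by -0.37 (adjusted p = 0.279). Its probe was dim, with a mean log2 level of -3.67 in ethanol livers and -3.30 in control livers. RNA polymerase I transcription had 16 of 23 higher, with a median of 0.07, against 14 and 0.041 after quantile normalization. Regulators of mTORC1 and Myc had 20 of 35 higher, with a median of 0.03, and after quantile normalization 15 were higher and the median was -0.016. Mtor itself differed by 0.26 (adjusted p = 0.328), and Mycn, a Myc-family transcription factor, by -0.94 (adjusted p = 0.359). The Mycn values varied widely within the groups, with an SD of 0.66 in ethanol livers and 0.70 in control livers. Ribosome quality control had 9 of 18 higher, with a median of 0.0058, against 7 and -0.039 after quantile normalization. Map3k20, the kinase that senses stalled and collided ribosomes, differed by -0.57 (adjusted p = 0.227). Its probe was also dim, with a mean log2 level of -3.90 in ethanol livers and -3.33 in control livers. No probe of these lists passed the threshold in either direction.

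Markers of liver cells were set beside this. Hepatocyte markers had named probes for 11 of 12 genes. Of their 19 probes, all tested, 9 were higher in ethanol livers with a median of -0.03, against 4 and -0.09 after quantile normalization. Macrophage markers had 6 of 13 higher (median -0.0038), lymphocyte markers 4 of 14 (-0.14) and endothelial markers 3 of 12 (-0.07). Bile duct markers had 1 of 5 higher (-0.39) and erythroid markers 1 of 8 (-0.18). After quantile normalization these were 5 (-0.07), 3 (-0.19), 3 (-0.09), 1 (-0.45) and 1 (-0.25), in the same order. Stellate cell and fibroblast markers had 3 of 13 higher, with a median of -0.37, against 2 and -0.47 after quantile normalization. Without that normalization 8 of the 13 had a limma unadjusted p under 0.05, beside 12.8% of all tested probes. Col1a2, a chain of type I collagen, differed by -1.43 (adjusted p = 0.227). None of these markers passed the threshold, and their part in the members' values was not tested.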

How the data were processed

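Per the file headers, the authors deposited 1 scanner table per array, of linear spot intensities written by Feature Extraction 10.7.3.1 for a design on build mm9. They also deposited 1 table of log2 values, which after centring each probe lay within 0.021 of log2 processed intensity scaled to the 75th percentile on every array (27812 probes), and how its probes were centred is not known. Per the labels' protocols, 5 of 10 mice per group were drawn at random and 150 ng of total RNA was labelled with Cy3.

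Control and outlier spots were left out, processed intensity was divided by each array's 75th percentile with a floor of 4 signal units, log2 was taken and spots of a probe were averaged. Probes well above background on at least 4 arrays of a group were tested with limma 3.58.1 in R 4.3.3 (lmFit, eBayes, Benjamini-Hochberg, adjusted p under 0.05). Tested on simulated data with 200 of 31110 probes changed, the fit recovered 20.8% of probes changed by 0.5 and 74% of those changed by 1 on the log2 scale. The changed probes were drawn from all tested probes, with independent noise. The recovery is thus not that of the members, whose median SD was smaller. Symbols came through each probe's accession from the RefSeq table for GRCm38.p6: 32989 probes had 1 symbol, 0 several and 23616 none. The number of arrays limits precision.

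Members, lists and groups of genes were chosen with earlier results of these data known. Named are the 6 higher and 6 lower members with the smallest p, fixed genes of known role, the 3 steadiest and 3 most variable probes, the 3 genes whose probes differ most and 2 genes for each other list; any other gene named was chosen after its values were seen. Some genes that the rule names are not reported here. Alternatives covered scaling, background correction, the deposited log2 values, floor, filter, slide, array position, replicate block, variance model and leaving out each replicate.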

Additional observations from a re-analysis of the deposited data

Results flagged for a closer look

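For the named probes reported here, and for 3 summary measures, the lowest and highest mouse of each group were set against the rest of the group. In 17 of 100 groups of 5 the gap exceeded 0.71 of the group's range (Dixon's 95% critical value). Chance flags about 1 in 20 groups, and probes of 1 gene are not independent. All values are log2 levels relative to the array's 75th percentile.

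Ethanol replicate 2 was the far sample in 9 of the 17, each time the lowest of the ethanol mice. It read 6.07 for Rpl13a and 6.79 for a probe of Rps27. The 5 probes of Rpl39 read 5.40, 5.14, 2.88, 6.48 and 3.39 in it, and those of Rps24 read 3.32 and 4.73. The members' median without this mouse was 0.13, against 0.11 with it.

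Control replicate 3 was far from the other control mice in 5 groups. It was the highest for Rpl39 at 5.70 and 5.40 and for Rplp1 at 6.51 and 6.23, and the lowest for Rpl19 at 5.71. Control replicate 2 was the highest for Rpl32 at 6.85, and the lowest for a dim probe of Rpl9 at 1.08 and for Rps3 at 4.78.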

How the results depend on the processing

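No member passed the threshold under any alternative run. The members' median, 0.11 by 75th percentile scaling, was 0.0034 with quantile normalization, 0.023 with scaling to the array median and 0.025 with cyclic loess. The number higher in ethanol livers, 129 of 135, was 70 with quantile normalization and 75 of 78 with 1 probe per gene. Over all tested probes 3 passed; this was 1 with no filter, 0 with slide as a fixed block, on slide 1 alone, on slide 3 alone and with array column as a covariate, and 6 with trend and robust or with array weights. Leaving out each replicate in turn gave 0 to 6 passing probes, a members' median of 0.088 to 0.13, 124 to 131 members higher and a smallest member adjusted p of 0.168 to 0.526. Among 49 named probes, the sign changed for 18 with quantile normalization, 13 with median scaling, 13 with cyclic loess, 14 on slide 3 alone, 11 on slide 1 alone and 8 with slide as a fixed block, and for 0 to 7 under each other alternative. The cause was not tested.

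With the replicate number as a replicate block the median was 0.11, 129 members were higher and 0 of all tested probes passed. Same-numbered mice correlated at 0.20, 0.05, 0.26, 0.05 and -0.17 in their deviations from the group means, so the numbers were not taken as pairs.

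The members' median shift is about as large as the change between scalings, and the 6 members at background have no measured difference.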

Other observations

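Across the 10 arrays, 74 pairs of probes of the same member gene had a median Pearson r of 0.81, given as a description over arrays that share their scaling. In 7 pairs r was below 0. The lowest was -0.41, for 2 of the 3 tested probes of Rpl6. The first read 5.85, 5.70, 5.71, 5.71 and 5.83 in ethanol livers against 5.64, 5.74, 5.68, 5.70 and 5.70 in control livers. The second, a dimmer probe, read 3.64, 3.96, 3.96, 3.73 and 3.70 in ethanol livers against 3.76, 3.63, 3.65, 3.87 and 3.97 in control livers. The order of the mice on 1 of these 2 probes thus says little about their order on the other, although the group differences, 0.07 and 0.02, were both small. The remaining Rpl6 probe correlated at 0.96 with the first and at -0.23 with the second, so only the dimmer probe stood apart.

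The deviations of members from their group means also correlated with each other, with a median r of 0.28 over 9045 pairs of members, and 0.44 after quantile normalization. Of these pairs 65.8% had an r above 0, and 77.6% after quantile normalization. The pairs include probes of the same gene. No value for other tested probes is given beside this, so the correlation is not shown to be particular to the members.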
